A study of Homo sapiens with 8 samples.

Results

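The regions described here are the MBD-seq peaks that flank the centromere gaps of the human autosomes in 8 NB cell lines. In each GRCh37 autosome the longest run of unknown bases outside the first 1 Mb was taken as the centromere gap, and for the acrocentric chromosomes 13, 14, 15, 21 and 22 the end of the leading gap was used. On these acrocentric chromosomes the flank follows that gap and is named q here. For chromosome 21 too, q is thus a label of position and need not be the cytogenetic arm. A peak belongs to the flank when its midpoint lies within 2 Mb of a gap edge. This rule gave 11571 of the 702011 autosomal peaks over the 8 lists, and it does not use the height of a peak. The flanks hold 72.8 Mb of assembled sequence on 39 chromosome arms, or 2.71% of the assembled autosomes. MBD-seq captures fragments of genomic DNA through the methyl-CpG-binding domain of MBD2, so that a peak marks a stretch rich in methylated CpG. NB cell lines are tumor cells of the sympathetic nervous system kept in culture, and no treatment other than shearing and capture of their DNA is labelled. The labels give amplified *MYCN* (MNA) for N206, LAN-2 (LA-N-2 in the sample labels), CHP-902R and IMR-32. They give no amplification, here called *MYCN* single copy, for SK-N-AS, SJNB-1, SH-SY5Y and CLB-GA. Each line is 1 established culture and was sequenced as 1 sample, so an error given here is the spread between lines.

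Human centromeres are built from alpha satellite, a tandem repeat of short units, and in part of these units the protein CENP-B binds a short motif, the CENP-B box. Satellites II and III, built from diverged copies of the pentamer GGAAT, lie beside alpha satellite on several chromosomes, and duplicated segments, pseudogenes and gene families follow farther out. Such pericentromeric repeats are densely methylated in normal somatic cells and lose methylation in many tumors. In GRCh37 most of the satellite arrays are left out as gaps, so that the flanks show the assembled edge of this domain and not its core. The CENP-B box was searched as NTTCGNNNNANNCGGGN on both strands. It occurred 1807 times in the assembled autosomes, of which 933 (51.6%) were in the flanks, or 12.8 per Mb there against 0.335 per Mb elsewhere. A base was counted as repeated when the 45 bp window that starts there, the length of a read, occurs more than once in GRCh37. Of the flank sequence 26.8% was repeated in this sense, compared to 8.48% of the rest of the autosomes. CpG content was close, with 0.957 CpG per 100 bp in the flanks and 0.998 in the rest.

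Many of the strongest flank peaks lay on a few kinds of sequence, and examples are shown here because much of what follows turns on them. They are stretches under a peak in all 8 lines, read from the plus strand of GRCh37, 5′ to 3′. In the first, at the edge of the gap on 1p, and the second, on 7q, capitals mark the CENP-B box. In the other 2, capitals mark each CpG. The third, on 7p, is a GC-rich tandem repeat without annotated gene, and the last, on 20p, is a CA-rich stretch with only 5 CpG.
1p, chr1:121484943-121485242: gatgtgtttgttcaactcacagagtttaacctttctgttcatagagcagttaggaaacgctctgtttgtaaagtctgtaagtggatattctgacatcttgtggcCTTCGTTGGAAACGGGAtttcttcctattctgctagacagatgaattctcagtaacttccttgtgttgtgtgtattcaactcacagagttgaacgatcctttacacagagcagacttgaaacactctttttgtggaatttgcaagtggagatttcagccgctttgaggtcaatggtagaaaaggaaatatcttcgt
7q, chr7:61968980-61969279: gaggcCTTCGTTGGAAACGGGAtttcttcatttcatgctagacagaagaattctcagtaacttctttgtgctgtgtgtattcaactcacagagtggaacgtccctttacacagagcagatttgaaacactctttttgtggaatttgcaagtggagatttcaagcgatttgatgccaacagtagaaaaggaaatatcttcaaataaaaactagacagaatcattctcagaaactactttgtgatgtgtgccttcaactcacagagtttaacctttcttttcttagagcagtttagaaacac
7p, chr7:56439328-56439627: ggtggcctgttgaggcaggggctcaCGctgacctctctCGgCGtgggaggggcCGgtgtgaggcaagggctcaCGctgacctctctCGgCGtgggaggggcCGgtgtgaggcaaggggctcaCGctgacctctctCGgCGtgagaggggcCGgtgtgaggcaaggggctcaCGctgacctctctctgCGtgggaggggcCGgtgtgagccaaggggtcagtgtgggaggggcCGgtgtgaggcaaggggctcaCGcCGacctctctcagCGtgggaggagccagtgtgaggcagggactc
20p, chr20:25048018-25048317: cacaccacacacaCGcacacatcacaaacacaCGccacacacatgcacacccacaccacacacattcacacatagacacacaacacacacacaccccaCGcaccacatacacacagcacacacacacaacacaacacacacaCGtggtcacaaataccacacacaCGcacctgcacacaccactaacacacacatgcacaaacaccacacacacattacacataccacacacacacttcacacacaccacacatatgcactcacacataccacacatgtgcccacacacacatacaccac

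Peaks were sparser beside the centromere gaps than elsewhere on the autosomes in all 8 lines. CHP-902R had 1829 flank peaks, LAN-2 1808, IMR-32 1570 and N206 1384, and the single copy lines had 1300 (SH-SY5Y), 1297 (SK-N-AS), 1251 (SJNB-1) and 1132 (CLB-GA). Per Mb of assembled sequence this was 25.1 in CHP-902R, 24.8 in LAN-2, 21.6 in IMR-32 and 19.0 in N206, and 17.9, 17.8, 17.2 and 15.5 in the single copy lines in the order given. The rest of the autosomes held between 26.4 (SJNB-1) and 41.4 (LAN-2) peaks per Mb, so that the flank value was the lower one within each list. The mean ratio was 0.60 ± 0.058 (SD, n = 8), a log2 ratio of -0.74 ± 0.14 (two-sided exact sign-flip permutation test over the 8 lines, p = 0.00781, the smallest it can give). Bases under a peak made up 1.14% ± 0.24 of the flanks and 1.87% ± 0.28 of the rest, a log2 ratio of -0.72 ± 0.16 (same exact test, p = 0.00781). Of the 10 measures set against the same list in this way, each kept an adjusted p (Benjamini-Hochberg, exact tests) of at most 0.0313.

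**Figure D1:**
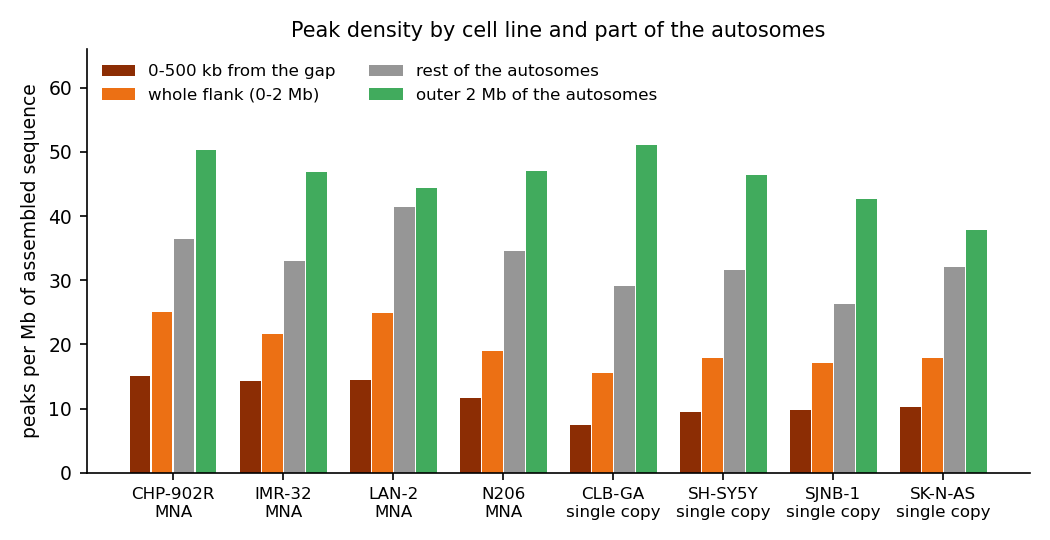
Peaks per Mb of assembled sequence (y axis, from 0) in each cell line (x axis), as 1 bar each for the 500 kb next to the gaps, the whole flanks, the rest of the autosomes (which includes the ends) and the outer 2 Mb of the autosomes. In each of the 8 lines the bars rise in this order, from between 7.52 and 15.2 next to the gaps to between 37.8 and 51.1 at the chromosome ends.

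Both the repeats and the place of the flanks on the chromosome were looked at in turn. Counted per base that is not repeated, flank density was still lower in all 8 lines, with a log2 ratio of -0.42 ± 0.14, a ratio of 0.748 (exact sign-flip permutation test, p = 0.00781). Against the rest of the same chromosome the log2 ratio was -0.85, and per CpG it was -0.68, both with p = 0.00781 in the same exact test. The outer 2 Mb of the autosomes, the other repeat-rich edge of assembled chromosomes, went the opposite way and held 45.8 ± 4.3 peaks per Mb. The flanks had 0.429 of the density of these ends (log2 ratio -1.22 ± 0.27, exact permutation test, p = 0.00781). The ends are richer in CpG, however, with 2.15 CpG per 100 bp and 48.9% GC against 0.957 and 40.5% in the flanks. Per CpG the log2 ratio was -0.05 ± 0.27, lower in 4 of 8 lines and within the spread between lines (exact permutation test, p = 0.625). How the authors placed reads with several matches is not given in the sources used here, so an absent peak in repeated sequence does not show absent methylation. The part of read placement in the lower density was not tested beyond the values per unique base.

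Peak density climbed with distance from the gap. In the first 250 kb the 8 lines had 0.306 ± 0.054 times the density of the rest of the autosomes, with N206 lowest at 0.253 and IMR-32 highest at 0.402. The ratio was 0.392 ± 0.075 from 250 to 500 kb, 0.578 ± 0.051 from 750 to 1000 kb and 0.701 ± 0.052 from 1250 to 1500 kb. In the last 250 kb of the flank it reached 0.901 ± 0.131, and CHP-902R (1.09) and SJNB-1 (1.09) exceeded the rest of the autosomes there. The 500 kb next to the gap held 0.408 times the density of the 500 kb farthest from it (log2 ratio -1.29 ± 0.17, lower in 8 of 8 lines, exact sign-flip permutation test, p = 0.00781). Repeated sequence fell over the same distance, from 38.7% in the first 250 kb to 21.4% in the last. Per base that is not repeated, density still went from 0.456 ± 0.081 in the first bin to 1.049 ± 0.152 in the last, and near against far had a log2 ratio of -0.96 ± 0.17 (exact test, p = 0.00781). Just inside the 2 Mb limit, the last 250 kb held between 212 and 363 peaks per line, and the first 250 kb beyond it between 210 and 342.

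**Figure D2:**
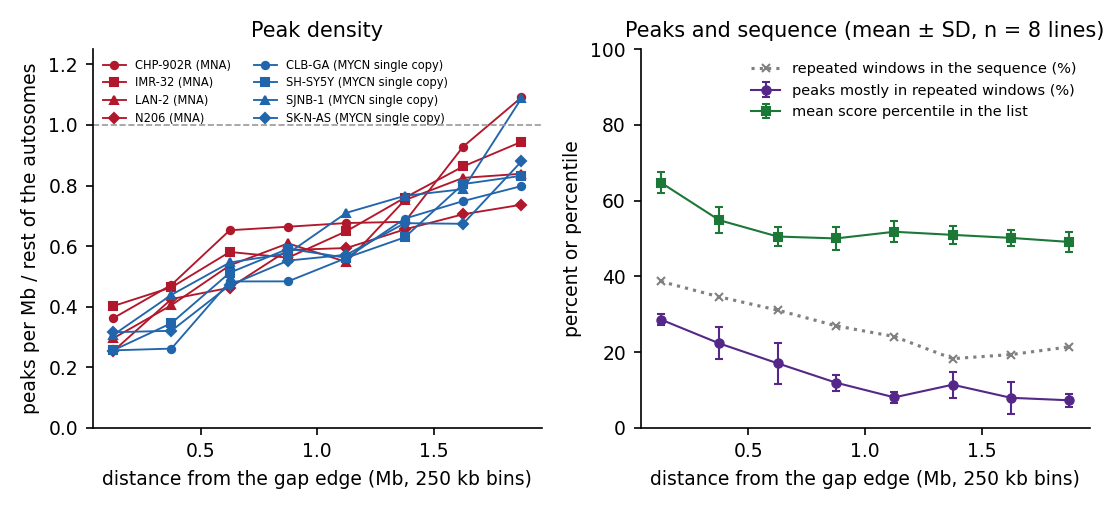
Left, peaks per Mb divided by those of the rest of the autosomes (y axis) in 250 kb bins of distance from the gap edge (x axis, Mb), 1 line per cell line and a dashed line at 1. Right, over the same bins, the mean ± SD over 8 lines of the share of peaks mostly in repeated windows (%) and of the score percentile, and the share of repeated windows in the sequence itself (%, dotted). Density rises from about 0.306 to 0.901, while the score percentile is highest in the first bin, at 64.8.

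The few peaks next to the gaps ranked higher on average. The score of a peak is the authors' own and rises as its MACS p-value falls, with 50 as the lowest value (p = 1e-05). It was only ranked within a list, where the middle rank is percentile 50. Scores depend on depth, so those printed are not comparable between lines. Peaks in the first 250 kb had a mean percentile of 64.8 ± 2.7 over the lines, those from 250 to 500 kb 54.9 ± 3.5, and farther out the bins lay between 49.1 and 51.8. Of the 763 peaks in the first 250 kb over the 8 lists, 77 held a CENP-B box and 94 were rich in GGAAT. The mean of this bin without such peaks was not tested. Over the whole flank the mean percentile was 51.7 ± 1.0, 1.67 ± 1.02 above the rest of the autosomes. It was higher in 7 of 8 lines and lower by 0.566 in LAN-2 (exact sign-flip permutation test, p = 0.0156). This difference did not hold among peaks with at least 50% unique windows, where it was 0.589 (exact test, p = 0.156), and it was -0.337 for flanks of 5 Mb. At the top of the lists the flanks stood out more. Of the flank peaks 2.39% were among the top 1% of their list, compared to 0.976% of the other autosomal peaks (difference 1.41 ± 0.58 percentage points, higher in 8 of 8 lines, exact permutation test, p = 0.00781, a measure added after the scores were seen). Among the 100 highest peaks of a list, 5 (LAN-2) to 17 (SH-SY5Y) lay in the flanks, although flank peaks made up only 1.47% to 1.89% of a list. The score of 3100 is the highest that recurs and was shared by 10 autosomal peaks, 6 of them in the flanks. These 6 are not separate places. They lay in 1 region at the gap on 1p (IMR-32, LAN-2 and SK-N-AS) and 1 on 21q (CHP-902R, IMR-32 and SJNB-1).

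Flank peaks were also somewhat richer in CpG and sat more often on repeats. Their median CpG content was 2.81 ± 0.23 per 100 bp, 0.151 ± 0.084 above that of the other peaks of the same list (8 of 8 lines, exact sign-flip permutation test, p = 0.00781). The difference was smallest in LAN-2 (0.0368) and largest in IMR-32 (0.329). Median width was 493 ± 44 bp in the flanks and 481 ± 41 bp elsewhere, a log2 ratio of 0.03 ± 0.03 that was above 0 in 6 of 8 lines (exact test, p = 0.0313) and lost its call when any of 6 lines was left out. Between 10.3% (SH-SY5Y) and 16.2% (LAN-2) of the flank peaks had less than 50% unique windows, against 3.88% to 8.49% of the other peaks. The difference was 6.51 ± 1.08 percentage points (8 of 8 lines, exact permutation test, p = 0.00781). In the flank sequence itself 26.8% of the bases were repeated. That is a share of bases and not of peaks under a cutoff, so the lower share among the peaks is only a rough comparison.

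Peaks with a CENP-B box or rich in GGAAT units were few, and their mean score percentile was high. Of the flank peaks 1.06% ± 0.18 held a CENP-B box, compared to 0.0894% ± 0.0122 of the other peaks (difference 0.973 ± 0.181 percentage points, exact sign-flip permutation test, p = 0.00781). Boxes themselves were denser in the flank sequence, with 12.8 per Mb against 0.335 elsewhere. The test does not adjust for this, so it does not show that boxes are more often under a peak there. LAN-2 had 21 of these peaks, IMR-32 20, CHP-902R 18, SH-SY5Y and SK-N-AS 16 each, N206 13, SJNB-1 11 and CLB-GA 9. The 124 box peaks had a mean score percentile of 84.9 and a median distance of 17.2 kb from the gap, and they were on 15 arms, led by 19q (19 peaks), 6p (18), 7q (17) and 1p (15). A match to the motif is not always satellite sequence, since 8 of these peaks, 1 per line, share the only match on 22q, which lies in the *IL17RA* region. Peaks are counted over the 8 lists, so that 1 place can count several times. On 7q, 16 of the 17 box peaks lay in 1 region, chr7:61967275-61970775. Most boxes, however, were not under a peak. Of the 933 boxes in the flanks, 1.82% (CLB-GA) to 4.93% (IMR-32) lay under a peak, a mean of 3.24% ± 1.048 over the lines. The same share outside the flanks was not computed. Peaks in which at least 60% of the bases equal the base 1 alpha satellite unit further on, the mark used for alpha satellite, numbered 1 to 9 per line, or 0.238% ± 0.179 of the flank peaks against 0.0211% ± 0.0048 of the others (difference 0.217 ± 0.183, exact permutation test, p = 0.00781). With peaks of at least 50% unique windows only, the latter difference was -0.00419 (exact test, p = 0.945). The alpha satellite test does not adjust for how much of such sequence the flanks and the rest hold. It does not show that alpha satellite is more often under a peak in the flanks. Peaks with at least 20% of their bases in GGAAT units on either strand numbered 119 on 12 arms, of which 43 were on 16q and 37 on 10q, and 94 lay in the first 250 kb. Their mean score percentile was 74.7.

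The flanks were also cut into tiles of 500 bp, so that kinds of sequence could be compared by the share of their bases under a peak. Alpha satellite-like tiles, which made up 1.64% of the flank tiles, had 0.0924% ± 0.0916 of their bases under a peak, and tiles of other sequence with mostly unique windows had 1.35% ± 0.28. This is a log2 ratio of -4.59 ± 1.61 (lower in 8 of 8 lines, exact sign-flip permutation test, p = 0.00781, adjusted p = 0.0117 over 3 tile comparisons). Other tiles with mostly repeated windows, segmental duplications among them, had 0.536% ± 0.138 (log2 ratio -1.34 ± 0.16, exact test, p = 0.00781). Alpha satellite-like tiles were not tested against these. Their highest value was 0.293% (IMR-32), and the lowest of the repeated tiles was 0.370% (CLB-GA). The identity mark used for alpha satellite was missed by regions with several CENP-B boxes on 1p (51.2%), 7q (49.0%) and 6p (46.2%). Their tiles may thus count as other sequence, and other identity cutoffs were not tested for tiles. Compared with mostly unique tiles, tiles of GGAAT repeat went the other way in some lines only. IMR-32 had 4.74% of these bases under a peak, SK-N-AS 4.15%, SH-SY5Y 3.44%, SJNB-1 2.95%, CHP-902R 2.29%, N206 1.16%, CLB-GA 0.815% and LAN-2 0.298%. The last 3 lines were below their own unique tiles, and the difference was within the spread between lines (log2 ratio 0.47 ± 1.403, exact permutation test, p = 0.344). LAN-2 had the longest list and the lowest cover of GGAAT tiles, and with 3 such flank peaks against 26 in IMR-32 and 23 in SK-N-AS it also had the fewest of them. The tile classes were set after the peaks had been looked at.

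**Figure D3:**
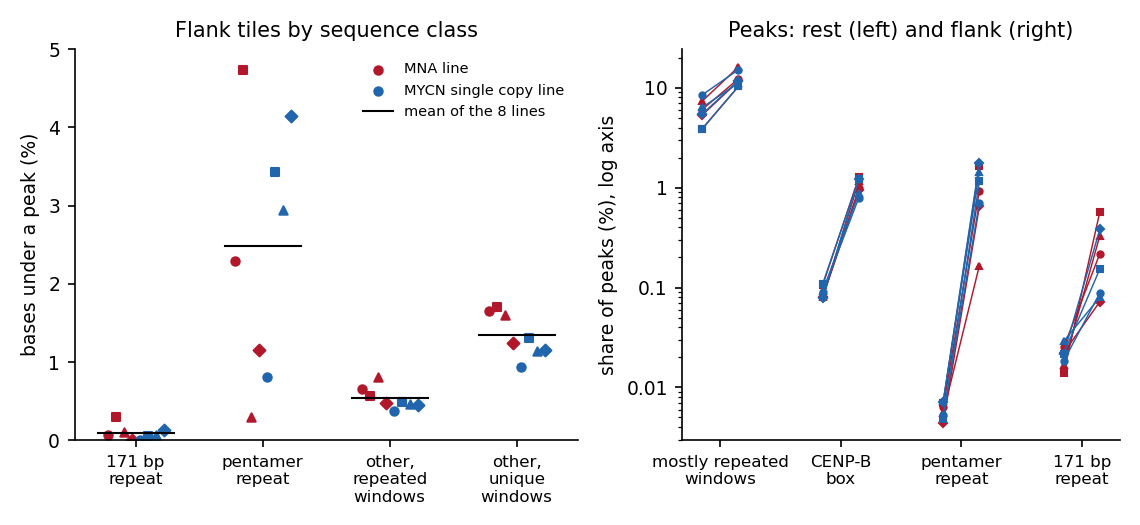
Left, the share of bases under a peak (%, y axis from 0) in 500 bp flank tiles of 4 sequence classes (x axis), 1 point per cell line with red for MNA and blue for *MYCN* single copy and a bar for the mean. Right, on a log axis, the share of peaks (%) of each class in the rest of the autosomes (left end) and in the flanks (right end), 1 line per cell line. Alpha satellite-like tiles average 0.0924%, and pentamer tiles spread from 0.298% to 4.74%.

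The flanks of single chromosome arms differed widely. In 26 of 39 arms (66.7%) the density was below that of the rest of the autosomes in all 8 lines, compared to 30.6% of the 1350 windows of 2 Mb along the autosomes, and in 4 arms (10.3%) it was above in all 8 lines, compared to 15.9% of the windows. The median arm had a mean ratio of 0.501 and the median window 0.894. The 4 high arms were 20q with 1.61 ± 0.24 times the rest, 8p with 1.35 ± 0.09, 10q with 1.33 ± 0.15 and 20p with 1.33 ± 0.24. 17q had a like mean (1.35 ± 0.43) but was below the rest in SK-N-AS and LAN-2. At the low end, 6q had a mean ratio of 0.040 ± 0.034 and 20 peaks over the 8 lists, with 0 in LAN-2 and 7 in CHP-902R. 11q (0.051 ± 0.044) and 11p (0.056 ± 0.034) had 25 peaks each over the 8 lists, and 3p had 43, with none in CLB-GA, LAN-2 and SH-SY5Y. These 4 arms were AT-rich, with 35.6% to 37.8% GC, whereas 20q had 46.5%. Over the 39 arms, mean density and GC content had a Spearman's rho of 0.686 (Pearson's r 0.723), and density and repeated sequence a rho of -0.138. These arms share the same 8 lists, and GC content and CpG content go together in them.

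**Figure D4:**
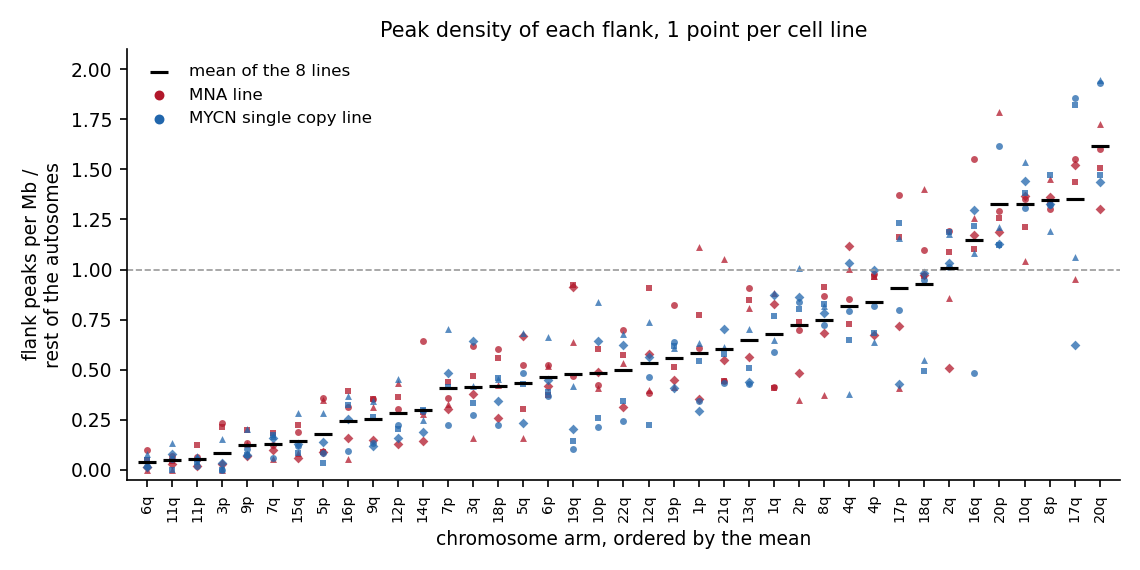
Flank peaks per Mb divided by those of the rest of the autosomes (y axis) for each of 39 chromosome arms (x axis, ordered by the mean), 1 point per cell line in red (MNA) or blue (*MYCN* single copy), with a black dash for the mean of the 8 lines and a dashed line at 1. The arms run from 0.040 on 6q to 1.61 on 20q.

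In some arms repeats made up much of the peaks. On 9p, where 93.8% of the sequence is repeated, 94.4% of the 54 peaks were mostly in repeated windows, and the density was 0.124 ± 0.054 of the rest. On 1q (63.5% of 252 peaks) and 21q (65.9% of 232) the share was high as well, but density was moderate, with ratios of 0.676 ± 0.193 and 0.601 ± 0.204. 7q held 59 peaks, of which 28.8% contained a CENP-B box, and their mean score percentile was 74.1. LAN-2 deviated from the other lines on 21q and also on 1p, where a smaller part of the sequence, 31.1%, is repeated. It had 46.1 peaks per Mb on 1p against 9.44 to 25.6 in the others, and 43.5 on 21q against 12.6 to 22.4.

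Merging overlapping peaks of all lines gave 5884 flank regions. All 8 lines had a peak in 35 of them, or 0.595% (exact Clopper-Pearson 95% interval 0.415% to 0.826%, counting error only), against 0.649% of all 362998 autosomal regions. Regions of 1 line only made up 56.0% in the flanks and 55.9% elsewhere. Counting only peaks that score 100 or more, the share in all 8 lines was 0.668% in the flanks against 0.273% of all autosomal regions, and in flanks of 1 Mb it was 0.924% against 0.649%, so that the order depended on these choices. The 35 shared regions lay on 18 arms, 5 of them on 10q and 4 each on 20p, 21q and 22q, and 16 of the 35 were within 500 kb of the gap. They were 618 to 5268 bp wide, 10 had less than 50% unique windows, 5 held a CENP-B box, 3 were rich in GGAAT and 16 overlapped no annotated gene.

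The highest of them, chr1:121483662-121485537, stood at the very edge of the gap on 1p and had rank 1 in CHP-902R, IMR-32, LAN-2 and SK-N-AS. It ranked 2 in N206 and SH-SY5Y, 4 in SJNB-1 and 5 in CLB-GA, with scores from 664 (CLB-GA) to 3227 (CHP-902R). This region holds 2 CENP-B boxes, and 71.6% of its windows are unique. On 7q, chr7:61967275-61970775 holds 11 boxes and no gene, and its best peak ranked between 2 (LAN-2) and 9 (CLB-GA), with scores from 430 to 2691. On 6p, chr6:58775966-58780071, 2.15 kb from the gap by its centre and with 8 boxes, had a best peak of rank 4 to 21. At these 3 places with several CENP-B boxes, the best peak was among the top 21 of each list. They were taken from regions with a peak in all 8 lines, so their ranks do not describe boxes in general. Shared regions with 1 box were lower, with best peaks of rank 760 to 43294 on 22q and 1485 to 76976 on 21q. All 3 regions fall short of the 60% identity used here to mark alpha satellite, with 51.2% on 1p, 49.0% on 7q and 46.2% on 6p. The sources used here name no input control, so that a pile-up of reads from unassembled copies of such repeats cannot be told apart from capture of methylated DNA.

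The second region, chr21:9825332-9827675 in the flank named 21q, overlaps *MIR3648* and *MIR3687* and resembles no satellite, with 14.4 CpG per 100 bp and 70.8% GC. Its best peak had rank 1 to 3 in 7 lines, with scores from 1841 (SK-N-AS) to 3100. In LAN-2 it scored 252 and ranked 642, far below the other lines. Only 22.8% of its windows are unique, so that a pile-up of reads from other copies cannot be told apart from capture here either. Region 3 in score order, chr16:46422380-46426007 on 16q (22.6% of bases in GGAAT units), and region 9, chr10:42596643-42600801 on 10q (22.1%), are the GGAAT regions among the 10 highest. In the former the best peak ranked 4 in SH-SY5Y, 7 in SJNB-1 and SK-N-AS, 20 in CHP-902R, 23 in IMR-32 and 28 in N206. CLB-GA (260) and LAN-2 (3290) ranked lowest. The best peak of the latter ranked 12 to 155 in 7 lines and 1858 in LAN-2.

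**Figure D5:**
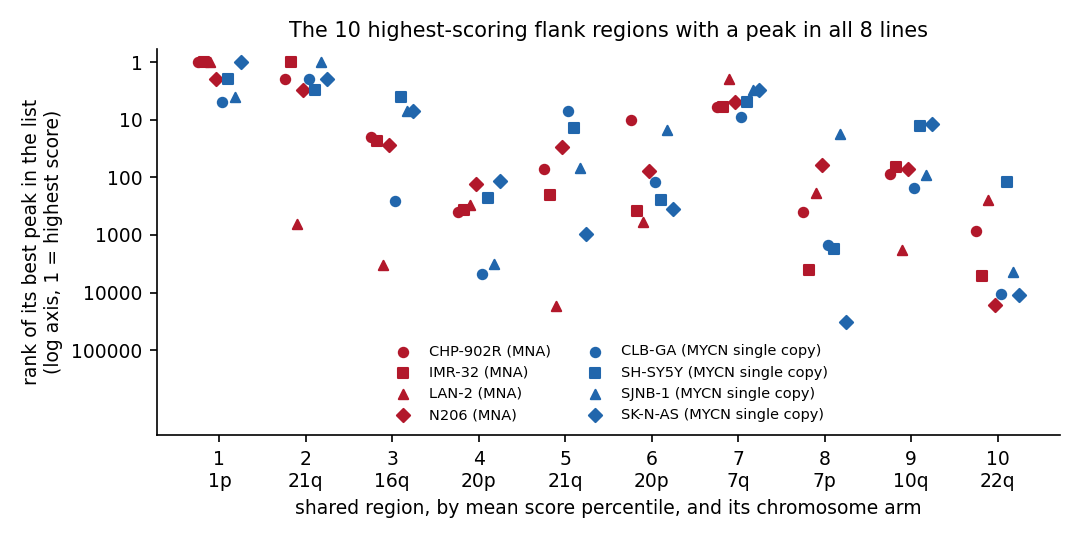
Rank within the list (y axis, log scale, 1 at the top is the highest score) of the best peak in each of the 10 highest-scoring flank regions with a peak in all 8 lines (x axis, with the chromosome arm), 1 point per cell line in red (MNA) or blue (*MYCN* single copy). Regions 1 and 7, which hold CENP-B boxes, stay within ranks 1 to 9, while LAN-2 ranks 642 in region 2, 3290 in region 3 and 16872 in region 5.

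The other regions of this group held no CENP-B box and few GGAAT units. chr20:25047750-25048917 on 20p, without annotated gene, has only 1.88 CpG per 100 bp and 100% unique windows, and it ranked between 115 (SK-N-AS) and 4702 (CLB-GA). chr21:9695351-9696530, in an exon of the long noncoding RNA ENSG00000286033, has 2.91% unique windows and ranked 7 in CLB-GA but 16872 in LAN-2. chr20:26188512-26190642 overlaps *MIR663AHG*, the host gene of miR-663a, and has 10.3 CpG per 100 bp and 93.7% unique windows. Its best peak ranked between 10 (CHP-902R) and 594 (LAN-2). The GC-rich tandem repeat at chr7:56439279-56439896 ranked highest in SJNB-1 (18) and lowest in SK-N-AS (32224). On 22q, chr22:16288128-16288855 ranked between 120 (SH-SY5Y) and 16228 (N206), and it lies in the promoter window of *POTEH*.

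Some shared regions held sequences of mature microRNAs. Of 2545 mature sequences in RefSeq's table (GRCh38.p14), 6 had an exact match in the 35 regions, 5 of them in the region of *MIR3648* on 21q. A match shows the sequence only. In that region, with 22.8% unique windows, it need not be the locus of the microRNA. The matches of hsa-miR-663a, hsa-miR-663b and hsa-miR-3648 lay under a peak in all 8 lines, and the other 3 in 7 lines, in regions chosen for a peak in all 8. The mature sequence of hsa-miR-663a matched the minus strand at chr20:26188879-26188900. It is shown because it is itself dense in CpG, with 5 CpG in the DNA. Capitals mark the seed (bases 2 to 8), which it shares with hsa-miR-10396b-5p.
hsa-miR-663a: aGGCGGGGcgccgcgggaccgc

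Of the protein-coding genes overlapped by a shared region, 6 are described here. *ZNF697*, a zinc finger gene on 1p, came first (chr1:120164902-120166842, coding exon, mean score percentile 92.5), and *TMEM121B* on 22q was next (chr22:17600201-17601531, coding exon, 89.2). *IL17RA*, a subunit of the interleukin 17 receptor, also on 22q, had a region over a coding exon with a mean percentile of 83.0, and *FAM222B* on 17q one with 78.7. *SLC20A2*, a phosphate transporter on 8p, had a mean percentile of 74.8. *PROS1* on 3q, which encodes the anticoagulant protein S, had an intronic region with a mean percentile of 65.7. None of these 6 regions reached a TSS, and the closest was that of *TMEM121B* at 719 bp. Among the noncoding genes, *FAM182B* on 20p (89.7), *LINC02133* and *LINC02192* on 16q (91.8 in 1 region) and the pseudogene *SPRING1P1* on 10q (78.3) followed.

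Promoters of flank genes had a peak less often than promoters elsewhere. The flanks hold 398 protein-coding genes, 5.47 per Mb compared to 7.21 per Mb in the rest, and 1167 pseudogenes, 16.03 per Mb compared to 4.95. A peak within 1500 bp upstream to 1000 bp downstream of a TSS was found for 28.1% ± 3.7 of the protein-coding genes per line in the flanks and for 38.2% ± 2.8 elsewhere, a difference of -10.2 ± 1.9 percentage points (lower in 8 of 8 lines, exact sign-flip permutation test, p = 0.00781, adjusted p = 0.0117 over 3 kinds of gene). For pseudogenes it was 9.37% ± 3.05 against 17.5% ± 1.6 (exact test, p = 0.00781). For long noncoding RNA genes it was 15.2% ± 3.8 against 18.9% ± 1.9 (difference -3.63 ± 2.81, lower in 7 of 8 lines, exact test, p = 0.0234, adjusted p = 0.0234). In all 8 lines 13 protein-coding promoters of the flanks (3.27%) had a peak, compared to 6.46% of those elsewhere. The make-up of the genes differs, since 74 of the 398 protein-coding flank genes are olfactory receptors. Of the 154 olfactory receptor genes and pseudogenes in the flanks, 2 had a promoter peak in any line. The difference without this family was not tested.

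Gene families that are typical of pericentromeres fell into a part with and a part without peaks. Their shares are a description, and they can be set beside the 52.5% ± 3.4 of protein-coding flank genes and the 19.0% ± 2.8 of all flank genes with a peak in the gene body in a line. Counted in at least 1 line, these shares were 71.4% and 37.9%. Olfactory receptor genes and pseudogenes, which encode odorant receptors of the nasal epithelium, were almost free of peaks. Of 154 in the flanks, 98 are on 11q, 32 on 14q and 18 on 11p, and only 2 had a peak in any line, a mean of 0.162% per line compared to 4.50% for olfactory receptor genes outside the flanks. Their median length of 945 bp is short. The 20 immunoglobulin orphons, variable gene segments displaced from their loci, and the 2 *GOLGA6*/*GOLGA8* genes had no peak in the gene body in any line.

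Zinc finger genes had peaks more often than these families. Of 47 *ZNF* genes and pseudogenes in the flanks, 31 had a peak in the gene body in at least 1 line and 17 to 24 per line, a mean of 43.1% against 66.9% for those elsewhere. Only 30 of the 47 are protein-coding. Their median length, 23660 bp over the 47, is far above the 945 bp of olfactory receptors, and the part of length was not tested. 13 of the 15 on 19p and all 6 on 10q had a peak, and none of the 3 on 7q did, all of them pseudogenes. *ZNF91*, known as a repressor of SVA retrotransposons, *ZNF254*, *ZNF337* and *ZNF451* had a peak somewhere in the gene body in all 8 lines, as did *ZNF487* and *ZNF697*. Of these genes only *ZNF697* overlapped a region shared by all 8 lines. In the others the peaks of the lines did not all fall in 1 region. In the ankyrin repeat group, 8 of 10 members had a peak in some line. Per line this was a mean of 46.25%, against 23.44% for members elsewhere, the opposite order to that of *ZNF* genes. *ANKRD30A*, a gene of breast and testis, had one in all 8 lines in the gene body and in the promoter window, but overlapped no region shared by all 8. *ANKRD36C*, *ANKRD26P1* and *ANKRD20A5P* had a peak in the gene body in 6 lines.

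The remaining families were small. Of 6 *POTE* genes, a primate family expressed mainly in testis and prostate, *POTEC* had a peak in the gene body in 3 lines, *POTEA* and *POTEM* in 2 and *POTEH* in none, although *POTEH* had one in the promoter window in all 8 lines. That window holds the shared region chr22:16288128-16288855 described above, so this is not a separate result. Of 5 *TPTE*/*BAGE* entries, *TPTE2* lacked a peak in SK-N-AS but had one in the other 7 lines, and *TPTE* had one in 4, whereas *BAGE2* had one in LAN-2 only. *NOTCH2*, a receptor of the Notch pathway, had a peak in 5 lines, and the 3 other *NBPF*/*NOTCH2* members in at most 1. *FRG1BP* had a peak in its body in 2 lines and in its promoter window in all 8. The latter window holds another of the shared regions, chr20:29610595-29611537 on 20q. *DUX4L45* had one in 3 lines, *DUX4L46* in 1 line, and *TP53TG3GP* in IMR-32 and CHP-902R. Members of such families share sequence, so that a peak may be placed at 1 of several copies.

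The *MYCN* groups were compared to see whether the flanks differ with *MYCN* status. MNA lines had 1648 ± 211 flank peaks and single copy lines 1245 ± 79 (SD, n = 4 each, no overlap, two-sided exact permutation test, p = 0.0286, the lowest value possible with groups of 4), but their lists were longer as a whole as well, with 96544 ± 9646 and 78959 ± 6828 autosomal peaks (exact permutation test, p = 0.0286). Relative to the rest of the autosomes, the log2 ratio was -0.69 ± 0.14 in MNA lines and -0.80 ± 0.12 in single copy lines, a difference of 0.11 that was within the spread between lines (exact permutation test, p = 0.286). The contrast between near and far flank was smaller in the MNA lines, with a log2 ratio of -1.17 ± 0.11 against -1.41 ± 0.13 (n = 4 each). This difference of 0.24 had p = 0.0286 in the exact permutation test, and 0.286 after adjustment over the 10 measures compared.

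By arm, 1 flank had relative densities in which every MNA line was above every single copy line, compared to 1.19% of the windows, and 1 had the opposite order, compared to 0.667%. The former was 19q. N206 had 31.5 peaks per Mb there, IMR-32 30.5, LAN-2 26.5 and CHP-902R 17, while SJNB-1 had 11, SK-N-AS 6.5, SH-SY5Y 4.5 and CLB-GA 3. Relative to the rest of the autosomes, MNA lines were at 0.736 ± 0.222 and single copy lines at 0.216 ± 0.140. The latter was 2p, with 0.566 ± 0.184 in MNA lines and 0.878 ± 0.089 in single copy lines, from only 13 to 25 peaks per line. *MYCN* itself lies on 2p but far from the flank. Both arms were named after their values were seen, and copy number in these lines was not analysed here.

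Of the 5884 flank regions, 6 (0.102%) had a peak in all MNA lines and no single copy line, compared to 0.121% of all autosomal regions, and 4 (0.0680%) had the reverse pattern, compared to 0.0394%. Each of the 6 MNA regions lay within a gene. They were in introns of *POMK*, a kinase that acts on O-mannose glycans, of *DNM1L*, the GTPase of mitochondrial fission, together with *YARS2*, of *CPNE8*, a copine, of *ITFG1* and of the long noncoding RNA *ZNF337-AS1*, and over a coding exon and a TSS of *LDLRAD4*, a regulator of TGF-beta signaling. Their mean score percentile ran from 22.6 (*LDLRAD4*) to 65.4 (*CPNE8*), and 4 of the 6 were below the middle of the lists. The single copy regions lay in *MAL*, a myelin and lymphocyte proteolipid, in *KIF3B*, a subunit of the kinesin-2 motor, in a pseudogene on 8q and in *RAB34*, a small GTPase that takes part in forming cilia. The *RAB34* region, chr17:27043758-27045711 over coding exons and a TSS on 17q, was the strongest, with scores of 117 (SK-N-AS), 130 (SJNB-1 as well as SH-SY5Y) and 156 (CLB-GA), a mean percentile of 95.7, 8.52 CpG per 100 bp and 100% unique windows. No MNA line had a peak there. With 1 line left out, 18 to 30 flank regions separated the groups, and fewer lines then have to match by construction.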

How the data were processed

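The authors captured methylated DNA of 8 NB cell lines with the MBD domain of MBD2, sequenced paired ends of 45 bp, mapped them on GRCh37 with Bowtie 0.12.7 and ran the peak caller MACS on every line. The deposited lists give the position and a score for each peak, which is -10 times the log10 of the MACS p-value. The lists give neither read counts nor the depth of each line, so depth was not used, and it limits what an absent peak can show. Control samples, options and the treatment of reads with several matches are not given in the sources used here.

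Gaps, CpG, windows of 45 bp that occur once on either strand, alpha satellite self-repeats, CENP-B boxes and GGAAT units were computed from GRCh37 with Python 3.11.15, numpy 2.4.6, numba 0.67.0 and pandas 2.3.3, and the steps were tested on simulated sequence. Gene models are those of GENCODE 44 lifted to GRCh37. Each line was its own control in two-sided exact sign-flip permutation tests (scipy 1.17.1), and *MYCN* groups were compared with exact permutation tests. Regions are overlapping peaks of all lines, merged. Named genes are those overlapped by a shared region, protein-coding genes first, in order of score percentile (at most 20), and up to 4 members per family with the most lines. The regions, families and lists were chosen with earlier results of these data known. The alternatives were a score of at least 100, equal list lengths (70816 peaks), overlap in place of midpoint, flanks of 1 or 5 Mb, no acrocentric chromosomes, other cutoffs and each line left out. Of the genes and sequences that met the rules for naming, 1 gene and some sequences are not reported here.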

Additional observations from a re-analysis of the deposited data

Results flagged for a closer look

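LAN-2 stood apart from the other MNA lines in the share of flank peaks that are mostly in repeated windows. Its share was 8.79 percentage points above that of its other peaks, compared to 6.42 in IMR-32, 6.29 in N206 and 6.24 in CHP-902R. The gap to the nearest line made up 0.931 of the range of the group, above Dixon's 95% limit for 4 lines. Chance gives about 1 such value in 20 groups, and 20 groups were examined. LAN-2 also had the longest list, and the part of list length was not tested here.

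The contrast between the 500 kb next to the gap and the farthest 500 kb differed between the *MYCN* groups by 0.24 on the log2 scale (MNA -1.17 ± 0.11, single copy -1.41 ± 0.13, n = 4 each, exact permutation test, p = 0.0286, adjusted p = 0.286 over 10 measures). Near the gap the MNA lines had 13.9 ± 1.5 peaks per Mb and the single copy lines 9.24 ± 1.18, and far from it 31.5 ± 5.3 and 24.5 ± 1.4. The part of list length, which was greater in the MNA lines, was not tested.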

How the results depend on the processing

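Of 191 alternative values for 13 results, 165 kept their direction and their side of the threshold. Membership by overlap in place of the midpoint gave another 13 values and is not counted, because it moved no peak. Lower density, lower covered length, the near and far contrast, CpG content and the CENP-B box kept both under each alternative run. The score percentile changed to -0.337 with flanks of 5 Mb (exact test, p = 0.344) and was 0.589 with peaks of at least 50% unique windows (p = 0.156), and the alpha satellite difference was -0.00419 in the latter. The contrast with the chromosome ends was -0.05178 per CpG (exact test, p = 0.625). The values for peaks of at least 50% unique windows, those per CpG and the near and far values per unique base were added after seeing the data. The width ratio was 0.0356 with equal list lengths (exact test, p = 0.0625) and 0.0271 to 0.0398 with 1 line left out, where 6 of 8 fits had p = 0.0625, above the threshold. Separating regions numbered 2 with a score of at least 100, 4 in flanks of 1 Mb, 37 in flanks of 5 Mb and 18 to 30 with 1 line left out, where fewer lines have to match by construction. Shared regions were 0.924% in flanks of 1 Mb and 0.6595% to 0.901% with 1 line left out, against 0.649% and 0.787% to 0.886% of all autosomal regions. With a score of at least 100 they were 0.668% against 0.273%. No paired analysis was possible because a replicate number only names a cell line here, and lines of the same number have nothing else in common. The lists do not give the depth of each line, and weak peaks may be missing in single lines.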
